A study of Mus musculus with 8 samples.

Results

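The genes described here are interferon-stimulated genes, whose products form the antiviral programme that cells switch on in answer to interferon. They were taken from a list of 44 gene symbols. Of these, 41 had a probe set annotated to that symbol alone, and they are 41 of the 17097 genes measured; Isg15, Bst2 and Ifi44 were not analysed here. Where a gene had several probe sets, the one with the brightest average signal was read. The arrays carry RNA of sorted dermal fibroblasts from 4 young mice, aged 2 months, and 4 old mice, aged 18 months, with 1 specimen per array. On each collection day 1 mouse of each age was taken, but the labels do not say which specimens share a day. All 8 specimens were collagenase-digested skin without subdermis. Sorting kept cells with Pdgfra and CD34 on their surface and removed those with the lineage markers EpCam, CD31, CD24, CD117 or CD45. RNA was amplified before labelling. Strain and sex are not given in the sources used here. The p-values set each difference between the ages against the spread between these specimens, which the limma fit moderates with that of all genes.

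Type I interferons bind the receptor pair Ifnar1 and Ifnar2, and the kinases Jak1 and Tyk2 then activate Stat2. With Irf9 it takes part in a complex that binds interferon-stimulated response elements in promoters. Interferon gamma uses Ifngr1 and Ifngr2 and acts on gamma-activated sites, with Irf1 as an early target. The products sense viral RNA, block its translation or copying, tag proteins with Isg15 or ubiquitin, or attack the vacuoles of intracellular pathogens. In skin, fibroblasts can both make and answer interferons.

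The promoters are shown first because interferons induce such genes through these DNA elements. Promoter sequences came from RefSeq (build GRCm38.p6), with 250 bases before and 50 after each start. An entry matched 31 of the 41 measured members. The response element core was searched as GAAANNGAAA and the gamma-activated site as TTCNNNGAA, each on both strands. Matches of the 2 motifs can overlap, as can matches of the same motif. At least 1 core match was found in 15 of 31 members (48.4%), against 3.99% of the 27025 genes in the table. By single promoters, 3.44% of 32851 held one. The gamma-activated site matched in 8 of 31 members (25.8%), against 9.55% of genes and 8.30% of promoters. The 160 bases before the start are printed for 3 type I effectors, Ifit1 (chr19:34640729-34640888, plus strand), Ifit3 (chr19:34583369-34583528, plus strand) and Rsad2 (chr12:26456453-26456612, minus strand). They are also printed for the GTPases Gbp2 (chr3:142620503-142620662, plus strand) and Igtp (chr11:58199396-58199555, plus strand) and for the transcription factor gene Irf1 (chr11:53769854-53770013, plus strand). Each runs 5′ to 3′ on the gene's strand, and capitals mark the matches on either strand, so a core match can read as its reverse complement.
Ifit1: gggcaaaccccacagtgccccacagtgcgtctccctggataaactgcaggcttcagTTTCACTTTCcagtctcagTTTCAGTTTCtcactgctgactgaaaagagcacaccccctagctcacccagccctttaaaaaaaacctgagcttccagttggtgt
Ifit3: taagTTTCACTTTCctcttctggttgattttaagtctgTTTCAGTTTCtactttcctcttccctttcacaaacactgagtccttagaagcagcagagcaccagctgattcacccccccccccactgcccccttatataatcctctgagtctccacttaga
Rsad2: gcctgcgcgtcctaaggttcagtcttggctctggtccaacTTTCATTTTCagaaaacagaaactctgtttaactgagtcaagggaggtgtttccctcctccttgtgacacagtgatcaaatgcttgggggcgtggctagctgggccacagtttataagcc
Gbp2: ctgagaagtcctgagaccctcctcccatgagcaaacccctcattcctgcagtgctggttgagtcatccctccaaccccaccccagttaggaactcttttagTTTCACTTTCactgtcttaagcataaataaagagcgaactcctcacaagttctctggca
Igtp: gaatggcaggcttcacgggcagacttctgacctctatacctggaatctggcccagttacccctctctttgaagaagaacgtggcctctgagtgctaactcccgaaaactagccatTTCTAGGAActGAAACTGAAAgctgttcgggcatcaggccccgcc
Irf1: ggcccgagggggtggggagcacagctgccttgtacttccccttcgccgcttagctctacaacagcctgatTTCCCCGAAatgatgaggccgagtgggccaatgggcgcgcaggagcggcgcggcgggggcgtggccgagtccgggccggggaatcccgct
Ifit1 held 2 core matches, which begin at positions -104 and -85 relative to the start. Ifit3 also held 2, and Rsad2 and Gbp2 held 1 each. Igtp held a core match and a gamma-activated site match side by side, and Irf1 held only the latter, at -90. All 5 GTPase genes with an entry (Gbp2, Gbp3, Gbp7, Igtp and Irgm1) had a core match. Among members with an entry, 6 of 14 called higher with age and 9 of 17 not called held the core. For the gamma-activated site these counts were 2 of 14 and 6 of 17. Every printed promoter holds a match, whereas Samd9l, Herc6, Oasl2, Cmpk2, Ifitm1 and Irf9, all called higher, held neither motif. A match is a string of letters and not a measured binding site.

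Levels are RMA values on the log2 scale, and a difference is the old mean minus the young mean on that scale. A gene was called when limma's Benjamini-Hochberg adjusted p, taken over all 17097 genes, was under 0.05. Of the 41 members 17 rose with age, 2 fell and 22 did not pass. Over all genes tested, 9.87% were called higher and 7.66% lower. After a further quantile normalization 1415 genes were called higher and 1716 lower, against 1688 and 1310 before it, while the members' counts became 16 and 2. The members' median difference was 0.26, against 0.01 over all genes. Of the members' 41 differences 33 were above 0, against 51.6% of all genes. The 4 old values all lay above the 4 young values for 18 members (11.7% of all genes) and below them for 2 (9.66% of all genes). On the probe sets read, only Samd9l changed by 2-fold or more, while a dimmer probe set of Cmpk2 differed by 1.28, as much as Samd9l. In bulk RNA, a change in the number of cells that express a gene and a change in RNA per cell cannot be told apart.

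**Figure D1:**
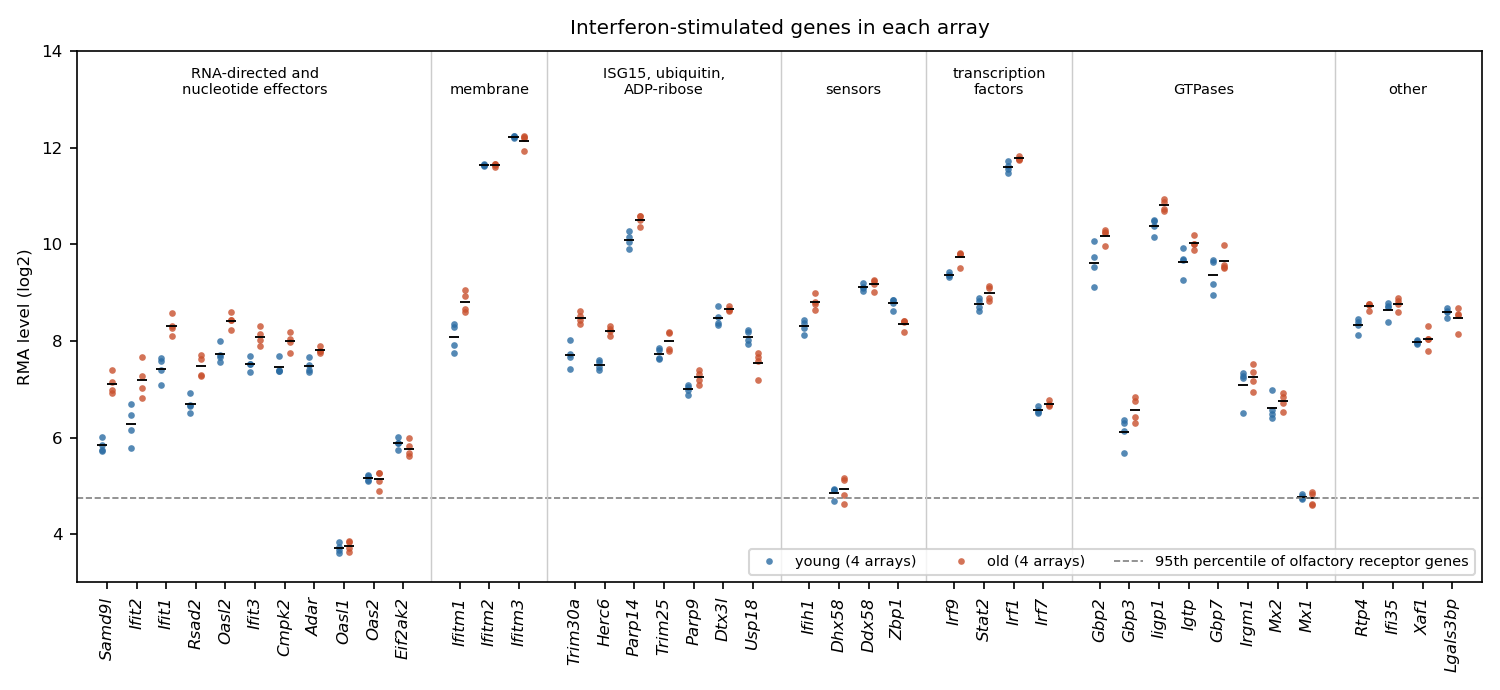
RMA level (log2) of each of the 41 members in each array, grouped by role, with young arrays in blue and old arrays in red. Short bars are group means of 4 arrays, and the dashed line is the 95th percentile of the mean levels of 41 olfactory receptor genes (4.74). Ifitm3 and Ifitm2 are at the top, Oasl1 is below the line, and Samd9l has the widest gap between the groups.

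An index of non-specific signal differed with age and may bear on every value below. It is the mean of the array's 8 GC-rich non-specific controls. It lay between 6.34 and 6.62 in young arrays and between 5.53 and 6.18 in old arrays, a difference of -0.61. With this index as a covariate the members' median difference was 0.24, and 32 of 41 differences were above 0. Ifit3 and Samd9l then kept their calls, 2 of 41 members, against 0.977% of all genes. The index does not overlap between the ages, so the part of age and the part of the index in a difference cannot be told apart with 8 arrays.

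On the probe sets read, the 4 largest rises were those of effectors that act on RNA or nucleotides, of which 8 of 11 rose, none fell and 3 did not pass. Their median difference was 0.56. Samd9l restricts poxviruses and slows translation. Its level was 6.02, 5.85, 5.73 and 5.75 in young replicates 1 to 4 and 6.93, 7.15, 6.98 and 7.40 in old replicates 1 to 4. The groups were 0.91 apart at their nearest values, the widest gap of any member on the probe sets read. The difference was 1.28 ± 0.11 (SE, n = 4 each), or 2.42-fold (limma adjusted p = 8.2e-05). With that index in the fit it was 1.35 (limma adjusted p = 0.0336).

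The genes of the 3 Ifit proteins, which bind viral RNA and hold back its translation, all rose. Ifit1 lay at 7.39, 7.09, 7.58 and 7.65 in young and at 8.57, 8.27, 8.31 and 8.11 in old. Ifit2 lay at 6.70, 6.16, 5.78 and 6.46 in young and at 7.66, 6.81, 7.03 and 7.27 in old. Neither gene's groups overlapped, although the highest young Ifit2 value was only 0.11 below the lowest old one. Ifit1 differed by 0.89 ± 0.13 (SE, limma adjusted p = 0.00163) and Ifit2 by 0.92 ± 0.22 (SE, limma adjusted p = 0.0162). Ifit3 rose from 7.53 ± 0.13 to 8.09 ± 0.18 (SD, n = 4 each), a difference of 0.56 (limma adjusted p = 0.00436). With the background index its difference was larger, 0.99 (limma adjusted p = 0.0113).

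Rsad2 encodes viperin, which makes a chain-terminating nucleotide, and Cmpk2 lies beside it and is a nucleotide kinase. Rsad2 lay at 6.68, 6.50, 6.66 and 6.92 in young and at 7.62, 7.30, 7.70 and 7.28 in old. Every old value was above every young one, and the difference was 0.79 ± 0.12 (SE, limma adjusted p = 0.00177). Its 2 dimmer probe sets showed smaller differences, 0.19 and 0.24. They lay at 4.735 and 3.89 in young and at 4.92 and 4.13 in old, near or below the olfactory receptor line (4.74). Cmpk2 rose by 0.54, and its dimmer probe set differed by 1.28. Oasl2, which encodes an oligoadenylate synthetase-like protein, rose by 0.69 (limma adjusted p = 0.00176). Adar, which edits double-stranded RNA, rose by 0.33 (limma adjusted p = 0.0156), and its dimmer probe sets differed by 0.32 and 0.19. The last of these lay at 3.92 in young and 4.105 in old, below that line.

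The other 3 genes of the group were not called. Oas2, which makes the activator of RNase L, differed by -0.03 (95% confidence interval -0.22 to 0.17). Eif2ak2, the RNA-activated kinase PKR, differed by -0.11 (-0.32 to 0.09). Oasl1 lay at 3.72 in young and 3.76 in old, below 4.74, the 95th percentile of olfactory receptor genes, which serve smell.

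Among membrane effectors, 1 of 3 measured members rose and 2 did not pass. These small proteins block the entry of enveloped viruses. Ifitm1 lay at 8.28, 7.74, 7.92 and 8.35 in young and at 9.06, 8.67, 8.59 and 8.94 in old. It was higher in every old array, by 0.74 ± 0.15 (SE, limma adjusted p = 0.00828). Ifitm2 lay at 11.65, 11.65, 11.62 and 11.66 in young and at 11.60, 11.64, 11.67 and 11.67 in old. Ifitm3 lay at 12.25, 12.24, 12.23 and 12.21 in young and at 11.93, 12.20, 12.24 and 12.22 in old. Both were in the upper part of the array's range, which ends at 13.04, and the groups of each overlapped. RMA values can compress differences near the top of the range, and whether this bears on these 2 genes was not tested.

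Of 7 modifiers that work through Isg15, ubiquitin or ADP-ribose, 3 rose, 1 fell and 3 did not pass. Herc6, the ligase that attaches Isg15 in mice, lay at 7.40, 7.46, 7.56 and 7.61 in young and at 8.24, 8.30, 8.10 and 8.20 in old. That is a difference of 0.70 ± 0.07 (SE, limma adjusted p = 2.0e-04), with little spread in either group. Trim30a, a ubiquitin ligase that restrains inflammatory signalling, lay at 7.67, 7.42, 8.02 and 7.72 in young and at 8.52, 8.44, 8.35 and 8.62 in old. It rose by 0.78, and its other probe set differed by 0.82. Parp14, an ADP-ribosyltransferase, lay at 10.05, 9.90, 10.28 and 10.15 in young and at 10.50, 10.59, 10.36 and 10.59 in old. It rose by 0.42 (limma adjusted p = 0.0118), and its dimmer probe set differed by 0.27. Its partners Parp9 and Dtx3l, which act as a pair, differed by 0.25 (limma adjusted p = 0.0613) and 0.19 (limma adjusted p = 0.185). Trim25, which ubiquitinates the RNA sensor Ddx58, differed by 0.26 (limma adjusted p = 0.13) and by -0.08 with the background index.

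The member of this group that fell was Usp18, which removes Isg15 from proteins and blocks signalling at Ifnar2. Its level was 8.01, 7.93, 8.19 and 8.22 in young and 7.19, 7.67, 7.58 and 7.74 in old. All old values were below all young values, and the difference was -0.54 ± 0.12 (SE, limma adjusted p = 0.0128). With the background index it was -0.32 (limma adjusted p = 0.663).

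Nucleic acid sensors were split, with 1 higher, 1 lower and 2 not called of 4. Ifih1 (MDA5), which detects long double-stranded RNA, lay at 8.27, 8.13, 8.37 and 8.44 in young and at 8.81, 8.76, 8.65 and 8.99 in old. It rose by 0.50 ± 0.09 (SE, limma adjusted p = 0.0048). Zbp1, which detects left-handed nucleic acid and can start necroptosis, went the other way. Zbp1 lay at 8.84, 8.79, 8.85 and 8.63 in young and at 8.41, 8.40, 8.42 and 8.19 in old. The groups did not overlap, and it fell by 0.42 on the log2 scale (limma adjusted p = 0.00485), while its dimmer probe set differed by -0.12. Ddx58 (RIG-I), the sensor of short RNA ends, lay at 9.20, 9.10, 9.11 and 9.04 in young and at 9.01, 9.24, 9.26 and 9.18 in old. The groups overlapped, and the interval of the difference was -0.10 to 0.22. The dimmer probe sets of Ddx58 differed by -0.135 and 0.04. Dhx58 (LGP2), a regulator of both RNA sensors, lay at 4.69, 4.93, 4.91 and 4.91 in young and at 4.63, 5.17, 4.82 and 5.13 in old. These values are close to the level of olfactory receptor genes. Its still dimmer probe sets differed by -0.02 and 0.25.

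Of the 4 transcription factor genes 1 rose and 3 did not pass, although all 4 differences were above 0. Irf9, the DNA-binding subunit of the type I complex, lay at 9.32, 9.36, 9.37 and 9.42 in young and at 9.80, 9.82, 9.50 and 9.81 in old. It rose by 0.36 (limma adjusted p = 0.0122), but differed by 0.09 with the background index (limma adjusted p = 0.865). Stat2, its partner, lay at 8.63, 8.71, 8.89 and 8.82 in young and at 8.89, 9.14, 8.82 and 9.09 in old, with overlapping groups and a difference of 0.22 (limma adjusted p = 0.129), or 0.11 on a dimmer probe set. Irf1 lay at 11.56, 11.48, 11.72 and 11.62 in young and at 11.77, 11.77, 11.75 and 11.83 in old. Its groups were 0.03 apart, close to the rounding of the values, and its difference was 0.18 (limma adjusted p = 0.0842). Irf7, which amplifies the type I response, lay at 6.52, 6.58, 6.66 and 6.50 in young and at 6.65, 6.78, 6.67 and 6.69 in old. The groups of Irf7 overlapped, and the difference was 0.13 (limma adjusted p = 0.187).

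The interferon-inducible GTPases had 2 called of 8, both higher, with a median difference of 0.34. They include the guanylate-binding proteins and immunity-related GTPases, which act on pathogen vacuoles and answer strongly to interferon gamma, and the antiviral Mx proteins. Iigp1 lay at 10.39, 10.15, 10.51 and 10.49 in young and at 10.73, 10.87, 10.69 and 10.94 in old. It rose by 0.42 ± 0.09 (SE, limma adjusted p = 0.0125), with no overlap of the groups. Gbp2 lay at 9.53, 9.11, 10.06 and 9.74 in young and at 10.29, 10.25, 9.96 and 10.23 in old. Young replicate 3 was above old replicate 3, and the difference was 0.57 ± 0.17 (SE, limma adjusted p = 0.0473). The call of Gbp2 is fragile. It was lost without young replicate 1, 2 or 4 or old replicate 1, 2 or 4 (limma adjusted p up to 0.106), and with the background index (difference 0.35). It was also lost after median centring (limma adjusted p = 0.0577) or a further quantile normalization (0.0567), with the most variable probe set (0.0543), trend and robust settings (0.0541), array weights (0.115) and the mean over probe sets (0.0509). Gbp3 lay at 6.30, 5.67, 6.37 and 6.14 in young and at 6.75, 6.30, 6.43 and 6.84 in old. Igtp lay at 9.67, 9.27, 9.92 and 9.70 in young and at 10.19, 10.01, 9.89 and 10 in old. Both had overlapping groups and differences of 0.46 and 0.38 (limma adjusted p = 0.089 and 0.0657).

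Gbp7 (0.29), Irgm1 (0.17), Mx2 (0.14) and Mx1 (-0.04) were not called either, and the dimmer probe set of Gbp7 differed by 0.51. Mx1, an antiviral dynamin-like GTPase, lay at 4.78 in young and 4.74 in old, at the level of olfactory receptor genes. The median SD of the GTPases was 0.29 in young and 0.16 in old. It was 0.13 and 0.15 over all members, GTPases included, and 0.10 and 0.12 over all genes. A wide young spread was neither shared by all GTPases nor limited to them. The young SD was 0.04 for Mx1 and 0.17 for Iigp1, and outside the group 0.40 for Ifit2 and 0.29 for Ifitm1. Young replicate 2 held the lowest young value of 7 of the 8 GTPases, and old replicate 3 held the lowest old value of 6. Guanylate-binding proteins have close paralogs, and a probe set may read more than 1 of them.

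Of 4 measured members with other roles, 1 rose and 3 did not pass. Rtp4, which dampens antiviral signalling, lay at 8.33, 8.12, 8.39 and 8.46 in young and at 8.77, 8.75, 8.62 and 8.76 in old. It rose by 0.40 (limma adjusted p = 0.00816), but its more variable, dimmer probe set differed by -0.06 and the mean of both by 0.17 (limma adjusted p = 0.354). Ifi35, a signalling adaptor, lay at 8.39, 8.70, 8.78 and 8.73 in young and at 8.60, 8.82, 8.88 and 8.77 in old. Xaf1, a pro-apoptotic protein, lay at 8.01, 7.94, 7.99 and 7.95 in young and at 8.30, 8.03, 8.05 and 7.80 in old. Lgals3bp, a secreted glycoprotein that binds galectins, lay at 8.48, 8.63, 8.69 and 8.59 in young and at 8.69, 8.54, 8.55 and 8.14 in old. The groups of all 3 overlapped, and their differences were 0.12, 0.07 and -0.12.

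**Figure D2:**
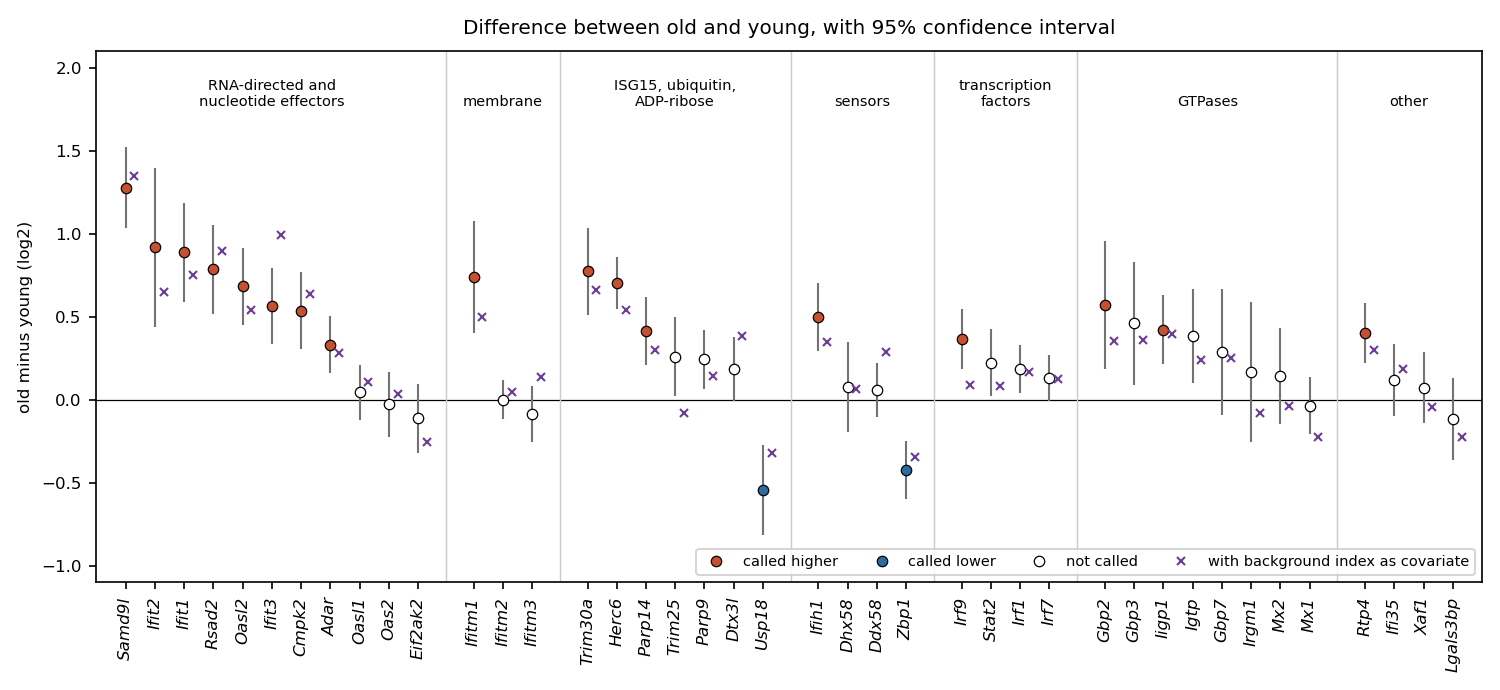
Difference between old and young (log2) for each member, grouped by role, with the 95% confidence interval of the limma fit as a vertical line. Filled circles are called genes (red higher, blue lower), open circles are not called, and crosses give the difference with the background index as a covariate. The called effectors lie between 0.33 and 1.28, and Usp18 (-0.54) and Zbp1 (-0.42) lie below 0.

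The values of the 17 members called higher, centred per gene, had medians of -0.25, -0.45, -0.18 and -0.16 in young replicates 1 to 4 and of 0.38, 0.29, 0.24 and 0.29 in old replicates 1 to 4. Young replicate 2 held the lowest young value of 21 of the 41 members and old replicate 3 the lowest old value of 18. No array was the highest of its group for most members, the largest such count being 15, in young replicate 3. With any 1 array left out, 18 of the 19 called members kept their calls, Gbp2 being the exception.

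**Figure D3:**
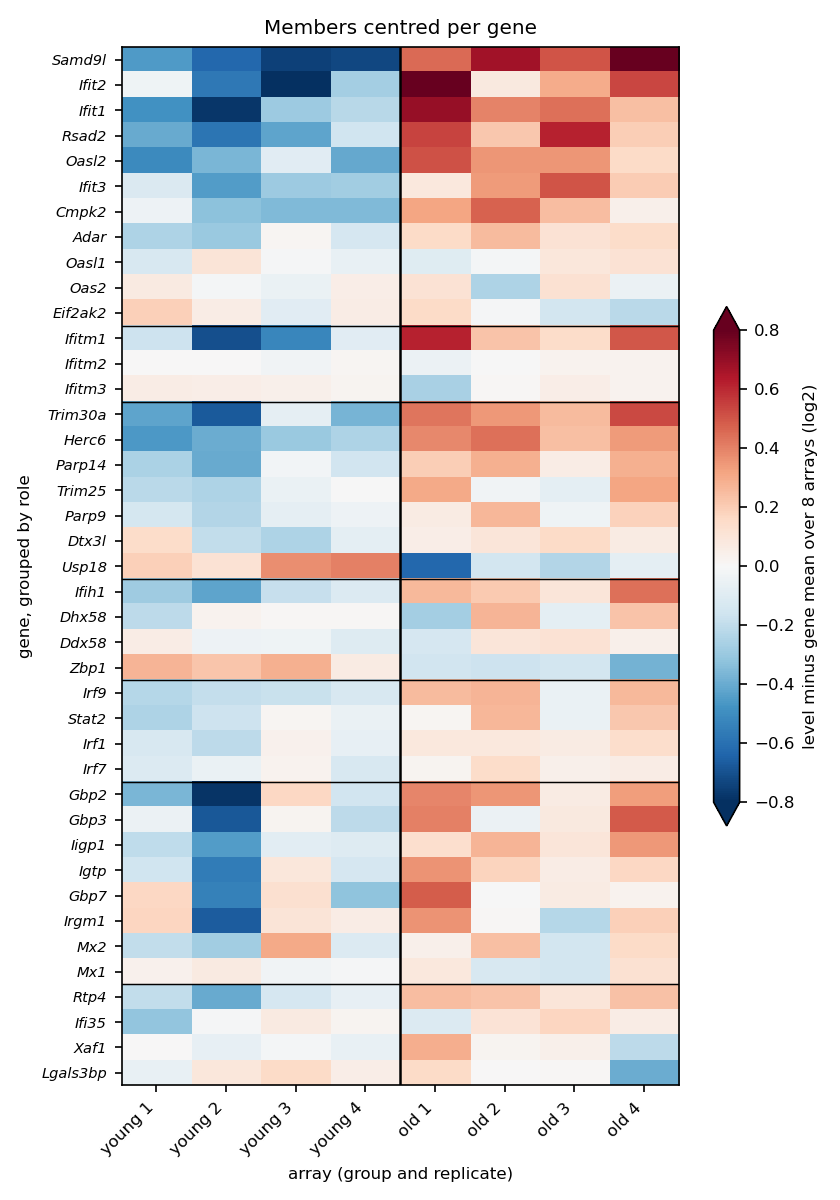
Level of each member minus its mean over the 8 arrays (log2), with arrays as columns, genes grouped by role as rows, and colours saturating at 0.8. The upper rows, from Samd9l to Adar, change from blue in young to red in old arrays, Usp18 and Zbp1 run the other way, and the GTPase rows are palest in old replicate 3 and bluest in young replicate 2.

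The pathway above the members was described from a further list of 144 gene symbols, of which 116 genes were measured. Of these 30 were higher, 5 lower and 81 not called, against 9.87% of all genes higher and 7.66% lower. Of 11 interferon genes 0 passed limma's adjusted threshold and 2 had an unadjusted p under 0.05, and 8 of them had means below that of the olfactory receptor line. Ifnb1, the fibroblast interferon, lay at 4.61 in young and 4.62 in old, and Ifng at 3.91 and 4.07. Of 6 receptor genes 1 fell and none rose. Ifngr2, the signalling chain for interferon gamma, lay at 8.35, 8.49, 8.19 and 8.24 in young and at 8.06, 7.88, 7.75 and 7.69 in old. It fell by 0.47 on the log2 scale (limma adjusted p = 0.0084), with no overlap. Ifnar1 differed by -0.30 (limma adjusted p = 0.0702), Ifnar2 by -0.18 and Ifngr1 by -0.02.

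Of 11 genes of the relay, 2 rose. Jak2, a kinase of the interferon gamma receptor, rose from 8.09 ± 0.09 to 8.51 ± 0.11 (SD, n = 4 each; limma adjusted p = 0.00382), and differed by 0.27 with the background index. Irf8, a factor of myeloid cells, rose by 0.65 (limma adjusted p = 0.0434), a call lost when any of 5 arrays (young replicates 1 and 2, old replicates 2, 3 and 4) was left out (limma adjusted p up to 0.108). Jak1 (0.03), Tyk2 (0.05) and Irf3 (-0.22) were not called. Among 11 feedback inhibitors 2 rose and 1 fell. The one that fell was Socs1, which inhibits the Jak kinases. It lay at 5.74, 5.31, 5.64 and 5.85 in young and at 4.81, 5.10, 5.20 and 5.13 in old, a difference of -0.57 ± 0.12 (SE, limma adjusted p = 0.0107) and of -0.22 with the background index. The phosphatase genes Ptpn11 (0.54) and Ptpn1 (0.32) rose. However, Ptpn1 differed by 0.14 with its most variable probe set (limma adjusted p = 0.547) and by 0.13 with the background index.

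Of 20 sensing adaptors, kinases and nucleases, 6 rose and 1 fell. Ifi204, a DNA-binding protein of the p200 family, lay at 6.97, 6.66, 7.54 and 7.01 in young and at 8.98, 8.52, 8.45 and 9.26 in old. This was the largest difference of the pathway list, 1.76 ± 0.21 (SE, limma adjusted p = 5.3e-04). Tlr4, the receptor for bacterial lipopolysaccharide, rose by 1.29 (limma adjusted p = 1.8e-04) and by 0.75 with the background index (limma adjusted p = 0.0687). Samhd1, which depletes nucleotides, rose by 0.55, and Tlr3, the endosomal sensor of double-stranded RNA, by 0.36 (0.24 with the background index). Of 57 further interferon-stimulated genes 20 rose and 2 fell, with a median difference of 0.20. Tgtp1 (1.27), Ifi203 (0.92), Nlrc5 (0.88) and Ifi47 (0.80) rose most. Ifi203 lost its call without any of 5 arrays (young replicates 1 and 2, old replicates 1, 2 and 4; limma adjusted p up to 0.0781) and with array weights (0.08), and differed by 0.43 with the background index. With that index in the limma fit, 0 genes of the pathway list were called higher and 1, Gbp4, was called lower, and 16 and 4 had an unadjusted p under 0.05 in those directions.

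**Figure D4:**
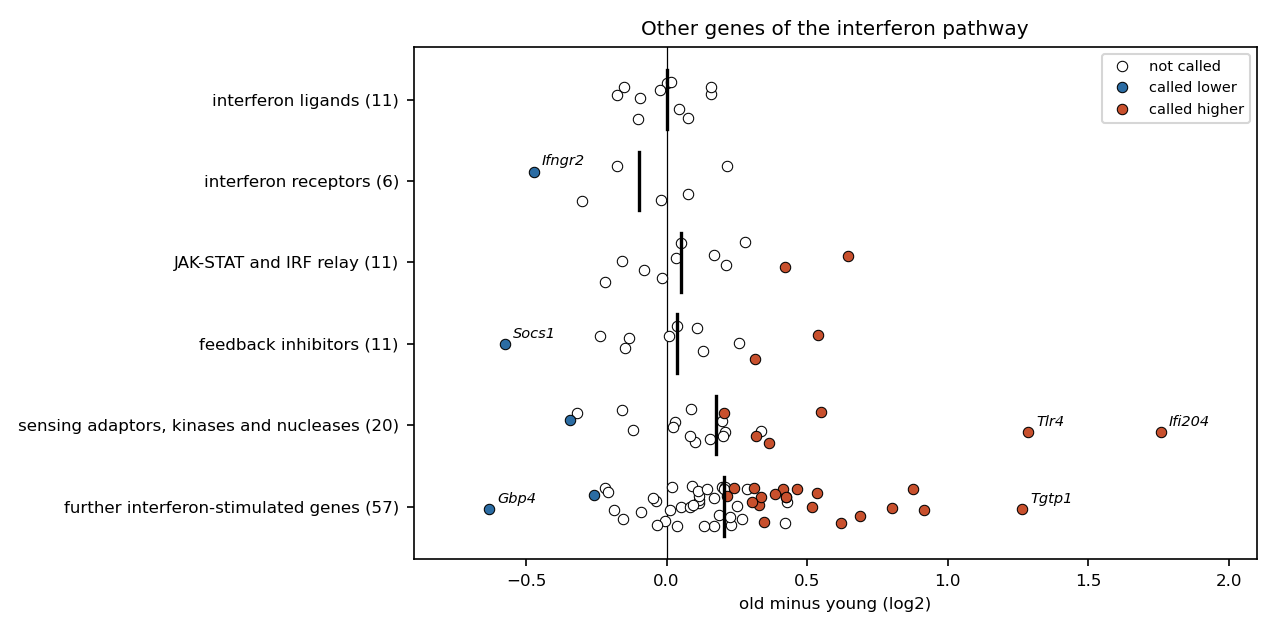
Difference between old and young (log2) for 116 other genes of the interferon pathway, with 1 point per gene, the number of genes in brackets and vertical bars at each list's median. Red points were called higher, blue points lower and open points were not called. The ligands lie between -0.17 and 0.16, and Ifi204, Tlr4 and Tgtp1 lie farthest to the right. Vertical scatter within a list carries no value.

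Markers of the sorted cells and of other cell types were read on the same arrays. The shares over all genes, 9.87% called higher and 7.66% lower, stand beside each count below. The fibroblast markers Pdgfra (8.36 in young, 8.52 in old) and Cd34 (11.73 and 11.68) were present, and 1 of 11 in that list was called, Col3a1, lower. Ptprc, which encodes CD45, lay at 3.71 and 3.88, Kit at 3.63 and 3.72 and Epcam at 4.25 and 4.59, all means below 4.74. Epcam reached 4.99 in old replicate 4. All old values of Ptprc and of Epcam lay above all young values, although neither was called (limma adjusted p = 0.101 and 0.0746). Pecam1, which encodes CD31, lay at 5.07 and 5.44, and Cd24a at 7.27 and 6.60. Of 13 macrophage markers 2 rose, Lyz2 (1.08) and Tyrobp (0.66), and 1 fell, Csf1r, the brightest (-1.92, and -1.97 with the background index). These oppose each other in the list's mean per array, which lay between 4.92 and 5.03 in young and between 4.93 and 5.02 in old. Of 10 T and NK cell markers 0 passed limma's adjusted threshold and 3 had an unadjusted p under 0.05, with Thy1, which fibroblasts share, the brightest. Of 8 dendritic cell markers 1, Irf8, rose, and Tcf4 was the brightest. Of 6 mast cell markers and 3 adipocyte markers 0 passed in limma, adjusted or unadjusted, of 6 Schwann and melanocyte markers 1 (Mlana) fell, and of 10 endothelial markers 2 (Prox1 and Tie1) rose. Of 5 pericyte and smooth muscle markers 1 rose, Kcnj8, and the list's mean per array moved with age, from 5.91 to 6.20 in young and from 6.44 to 7.09 in old. Of 12 keratinocyte markers 3 were higher (Krt14 by 1.65, Perp by 1.62 and Krt5 by 1.04) and 1 lower (Trp63, -0.405). Of the 12 markers, 10 had a difference above 0, and 9 had a limma unadjusted p under 0.05 in either direction. The markers' median difference was 0.54. Their mean per array was 6.90 to 7.94 in young and 7.44 to 8.59 in old. The part of macrophage, pericyte or keratinocyte RNA in the members' differences was not tested.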

How the data were processed

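Per the submitters' processing notes, the authors processed the arrays with RMA in the R package affy (versions not given), and the values as deposited are on the log2 scale, 1 per probe set, rounded to 2 decimals. RMA subtracts background, equalises the array distributions and summarises probes, so a shift shared by most genes is hidden and differences shrink near both ends of the range. Of 45141 probe sets, 28898 carried 1 gene symbol, 551 several and 15692 none, and only the first class was used. Array medians lay between 5.19 and 5.34, and arrays correlated between 0.983 and 0.997 over genes. The number of arrays limits the precision.

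The 2 ages were set against each other by a limma fit (version 3.58.1, under R 4.3.3) over 17097 genes, 2-sided and without covariates, after a check on simulated data. Members and lists were chosen with earlier results of these data known. The text may name any member, giving every array's value for up to 4 per role, by size of difference. It also names up to 4 called genes per pathway list and fixed key genes. Outside this rule it names Gbp4, Gbp8, Gbp10, Lgals9 and Rnaseh2b. Alternatives covered the replicate number, scaling, the background index, the probe set, dim genes, the variance model, array weights and leaving out each array. Figures were drawn with matplotlib 3.10.9.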

Additional observations from a re-analysis of the deposited data

Results flagged for a closer look

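In 8 of the 82 groups of 4 arrays examined, 1 array lay far from the other 3. Chance flags about 1 in 20 groups. In young arrays these were Cmpk2 in replicate 1 (7.68, the others between 7.37 and 7.39), Dhx58 in replicate 1 (4.69, the others 4.91 to 4.93) and Irgm1 in replicate 2 (6.50, the others 7.23 to 7.34). In old arrays Ifitm3 was low in replicate 1 (11.93, the others 12.20 to 12.24) and Gbp7 was high there (9.99, the others 9.50 to 9.57). Irf9 (9.50, the others 9.80 to 9.82) and Rtp4 (8.62, the others 8.75 to 8.77) were both low in old replicate 3. Zbp1 was low in old replicate 4 (8.19, the others 8.40 to 8.42), and its old values lay below all young values with or without that array.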

How the results depend on the processing

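With the background index as a covariate the counts fell to 2 members higher and 0 lower by limma (10 and 0 at an unadjusted p under 0.05), 68 genes higher and 99 lower, and 0 pathway genes higher and 1 lower, and the cause was not tested. Leaving out 1 array at a time gave 16 to 18 members higher and 2 lower, 1215 to 1709 genes higher and 983 to 1219 lower, 23 to 28 pathway genes higher and 5 to 7 lower, and a median member difference of 0.21 to 0.31. The other alternatives gave 15 to 18 members higher, 2 lower and a median of 0.19 to 0.27. Rtp4 turned to -0.06 with its most variable probe set. Of the 19 called members, 17 kept their calls under every alternative run except the covariate, Gbp2 and Rtp4 being the others. With the specimen number as a replicate block 18 members were higher and 2 lower, 1838 genes higher and 1268 lower, and 28 pathway genes higher and 5 lower, with Gbp3 gained. Deviations of same-numbered arrays correlated at 0.28, 0.05, -0.04 and 0.22, and 2 of the 4 young arrays (1 and 4) correlated best with the old array of their number, which does not settle whether a number marks a shared collection day. Signal limits Oasl1, Mx1 and Dhx58, which lie near the level of olfactory receptor genes.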

Other observations

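The guanylate-binding proteins outside the member list moved in both directions, a pattern noticed after the values were seen. Gbp4 lay at 9.73, 9.72, 9.75 and 9.72 in young and at 9.29, 9.06, 9.05 and 9.0 in old. It fell by 0.63 on the log2 scale (limma adjusted p = 3.7e-04), kept its call with any 1 array left out, and differed by -0.78 with the background index (limma adjusted p = 0.0367). Gbp10 differed by 0.46 and Gbp8 by 0.24, both called higher, but Gbp8 lay at 4.51 in young and 4.75 in old, near the level of olfactory receptor genes, and Gbp10 lost its call with any of 7 arrays left out. Young replicate 2 was the lowest array for Gbp10 (9.22) and for the immunity-related GTPases Tgtp1 (5.62) and Ifi47 (8.70), as it was for 7 of the 8 GTPases among the members.

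Lgals9, a galectin induced by interferon gamma, fell by 0.26 (limma adjusted p = 0.0172), from 8.88 ± 0.03 to 8.62 ± 0.08 (SD, n = 4 each), and differed by -0.13 with the background index. Rnaseh2b, a subunit of the enzyme that removes ribonucleotides from DNA, fell by 0.34 (limma adjusted p = 0.0133).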
